A study of Mus musculus with 18 samples.

Results

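Expression of 10 genes of transforming growth factor-beta (TGF-beta) signaling was examined in Tregs that lacked CD25, the alpha chain of the IL-2 receptor, and in their WT controls. The genes were *Lrrc32*, *Tgfb1*, *Tgfb3*, *Tgfbr1*, *Tgfbr2*, *Tgfbr3*, *Smad2*, *Smad3*, *Smad7* and *Ski*, taken by symbol from a count table of 50600 genes. All 10 were found, and all 10 passed the filter on low counts in every comparison. *Lrrc32* encodes GARP, a surface protein of activated Tregs that holds latent TGF-beta on the membrane. The ligands TGF-beta1 and TGF-beta3 are made as inactive complexes and must be released before they can bind. Free ligand joins the type II receptor TGFBR2 to the type I receptor kinase TGFBR1, which phosphorylates SMAD2 and SMAD3, and these enter the nucleus with SMAD4. SMAD7 and SKI act against the signal, the former at the receptor and the latter at the target genes. In T cells this pathway is known for its part in the induction of Foxp3 and of the integrin CD103.

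RNA-seq counts covered 18 samples of FACS-purified Tregs, each from an individual C57BL/6 mouse. Thymic Tregs were from 5 CD25cKO mice, in which floxed *Il2ra* is cut by a Cre expressed with YFP from the *Foxp3* locus, and from 5 Foxp3/RFP mice, all 3–4 weeks of age. The CD25cKO mice had been given WT splenocytes as newborns, which kept them free of autoimmunity, and no such transfer is described for the Foxp3/RFP controls. Splenic Tregs were from 4 CD25flox/Foxp3eGFP-Cre-ERT2/R26Y mice, in which tamoxifen both activates the Cre made in Foxp3+ cells and turns on YFP, and from 4 CD25 WT reporter controls. Both splenic groups received tamoxifen at 7–10 weeks of age and were analyzed 10–14 days later. Hereafter CD25-deficient Tregs are called CD25 KO and the controls WT. Tissue, mouse model, age, tamoxifen and sequencing run changed together, so differences between thymic and splenic samples cannot be told apart from these factors. The thymic WT and CD25 KO mice also differed in reporter allele of *Foxp3* and in the cell transfer.

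Total counts per sample ranged from 17239774 to 23993674 in the thymus and from 25258341 to 32639570 in the spleen. *Il2ra* was lower in every CD25 KO sample than in any WT sample of the same tissue, at 95.8–280 against 524–682 CPM (counts scaled to the size of the library) in the thymus and 168–208 against 488–538 CPM in the spleen. Only exon 4 is excised, and reads were counted over all exons, so the count need not reach 0. Reads over exon 4 were not examined here. Whether some cells kept an intact *Il2ra* was not tested. Thymic CD25 KO mice 2 and 4 stood apart, with 280 and 234 CPM of *Il2ra* against 95.8–105 CPM in the other 3, and results that rest on them are given with and without them. *Foxp3* was present in every sample, and was lower in CD25 KO Tregs of the thymus (270–335 against 399–577 CPM) and of the spleen (204–239 against 322–345 CPM). The summed level of 8 B cell markers was lower in thymic CD25 KO (60.4–80.3 CPM) than WT samples (109–137 CPM) and higher in splenic CD25 KO (607–734 CPM) than WT samples (445–554 CPM), most of it *Ighm*. Of these markers, 1 of 4 tested was called lower in the thymus and 3 of 5 higher in the spleen. Summed stromal and epithelial markers, mostly *Pecam1*, were at 139–166 CPM in splenic CD25 KO and 179–194 CPM in splenic WT samples. The sums of the myeloid and dendritic, erythroid, platelet, and immature thymocyte lists overlapped between genotypes in each tissue, and *Lyz2*, higher in splenic CD25 KO samples, was the single gene of these lists that edgeR called in either tissue. The platelet genes *Pf4*, *Ppbp*, *Gp1bb* and *Treml1* had at most 3 counts in every sample. The part of B cell and stromal RNA in the results was not tested. By flow cytometry, the study found a larger share of effector Tregs among splenic CD25 KO Tregs. Among thymic ones of older mice it found a larger share of resting, central Tregs. The part of such a shift in the results was not tested either.

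Levels were first compared between the genes per length of exonic sequence, as RPKM. In WT Tregs of both tissues, *Ski* and *Lrrc32* were the most abundant of the 10 messages and *Tgfb3* the least. In thymic WT Tregs, *Ski* had 77.0 ± 4.49 RPKM (SD, n = 5), *Lrrc32* 64.7 ± 8.93 RPKM, *Smad7* 57.7 ± 4.39 RPKM and *Tgfb1* 45.9 ± 2.52 RPKM. The ranges of *Ski* and *Lrrc32* overlapped, as did those of *Lrrc32* and *Smad7*, whereas every *Smad7* value was above every *Tgfb1* value. Below them, *Tgfbr2* (42.8 RPKM) and *Tgfbr1* (38.8 RPKM) overlapped in range, *Smad3* followed at 21.7 RPKM, *Tgfbr3* at 10.2 RPKM and *Smad2* at 6.35 RPKM, and the ranges of *Tgfbr3* and *Smad2* overlapped. In splenic WT Tregs, *Lrrc32* came first with 59.2 ± 3.79 RPKM (n = 4), and its range overlapped with that of *Ski* at 54.6 ± 1.67 RPKM. *Lrrc32* was by its mean the sixth of the 10 in CD25 KO Tregs of both tissues, at 26.2 ± 11.2 RPKM in the thymus and 23.6 ± 2.74 RPKM in the spleen. Its range there overlapped with those of *Tgfbr1*, *Tgfbr2*, *Tgfb1* and *Smad3* in the thymus and with that of *Smad3* in the spleen. *Tgfb1*, the ligand that T cells are known to make, exceeded *Tgfb3* in every sample, by a mean of 70.6-fold per length in thymic WT and 80.2-fold in splenic WT Tregs. *Tgfb3* rested on 29 to 109 counts per sample, and every other member on at least 915 counts. Of the receptor-activated SMADs, *Smad3* exceeded *Smad2* per length by 3.41 ± 0.190-fold in thymic and 3.93 ± 0.376-fold in splenic WT Tregs.

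**Figure D1:**
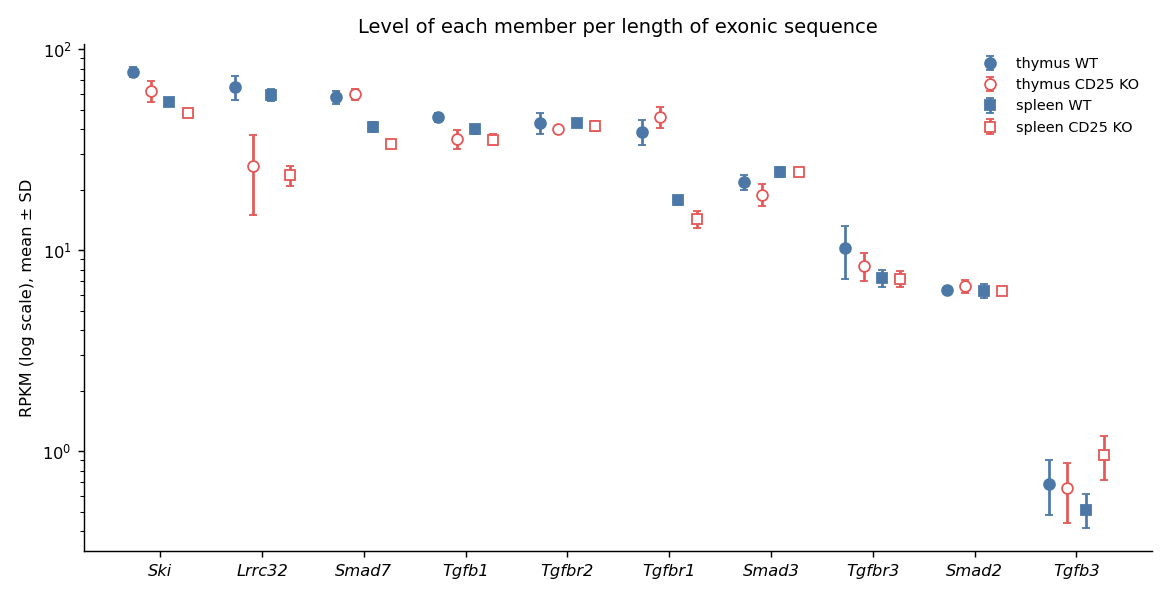
Level of each member as mean RPKM ± SD on a log axis, in thymic WT and CD25 KO (n = 5 each) and splenic WT and CD25 KO Tregs (n = 4 each). *Lrrc32* was at 64.7 (thymus) and 59.2 RPKM (spleen) in WT and at 26.2 and 23.6 RPKM in CD25 KO Tregs, and *Tgfb3* was the lowest in all 4 groups.

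The first comparison asked which of these genes differed between CD25 KO and WT Tregs within a tissue. In the thymus, *Lrrc32* was the single member called at FDR < 0.01, 2.44-fold lower in CD25 KO Tregs. In the spleen 4 members were called, namely *Lrrc32* (2.51-fold lower), *Tgfbr1* (1.24-fold lower), *Smad7* (1.22-fold lower) and *Tgfb3* (1.85-fold higher). These counts of 1 of 10 and 4 of 10 stand beside 6.16% of all 16986 genes tested in the thymus and 9.45% of 17463 in the spleen. WT and CD25 KO values did not overlap for 3 members in the thymus (*Lrrc32*, *Tgfb1* and *Ski*) and 5 in the spleen (*Lrrc32*, *Tgfb3*, *Tgfbr1*, *Smad7* and *Ski*), as they did not for 16.4% and 20.4% of all genes. Over the 10 members, the median log2 fold change amounted to -0.13 for the thymus and -0.10 for the spleen, beside 0.00 and -0.01 over all genes tested. In bulk RNA, fewer cells that express a gene and less RNA per cell cannot be told apart. Fold changes and adjusted p-values come from edgeR (quasi-likelihood test, Benjamini-Hochberg over all genes), and ± after a log2 fold change is its standard error.

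**Figure D2:**
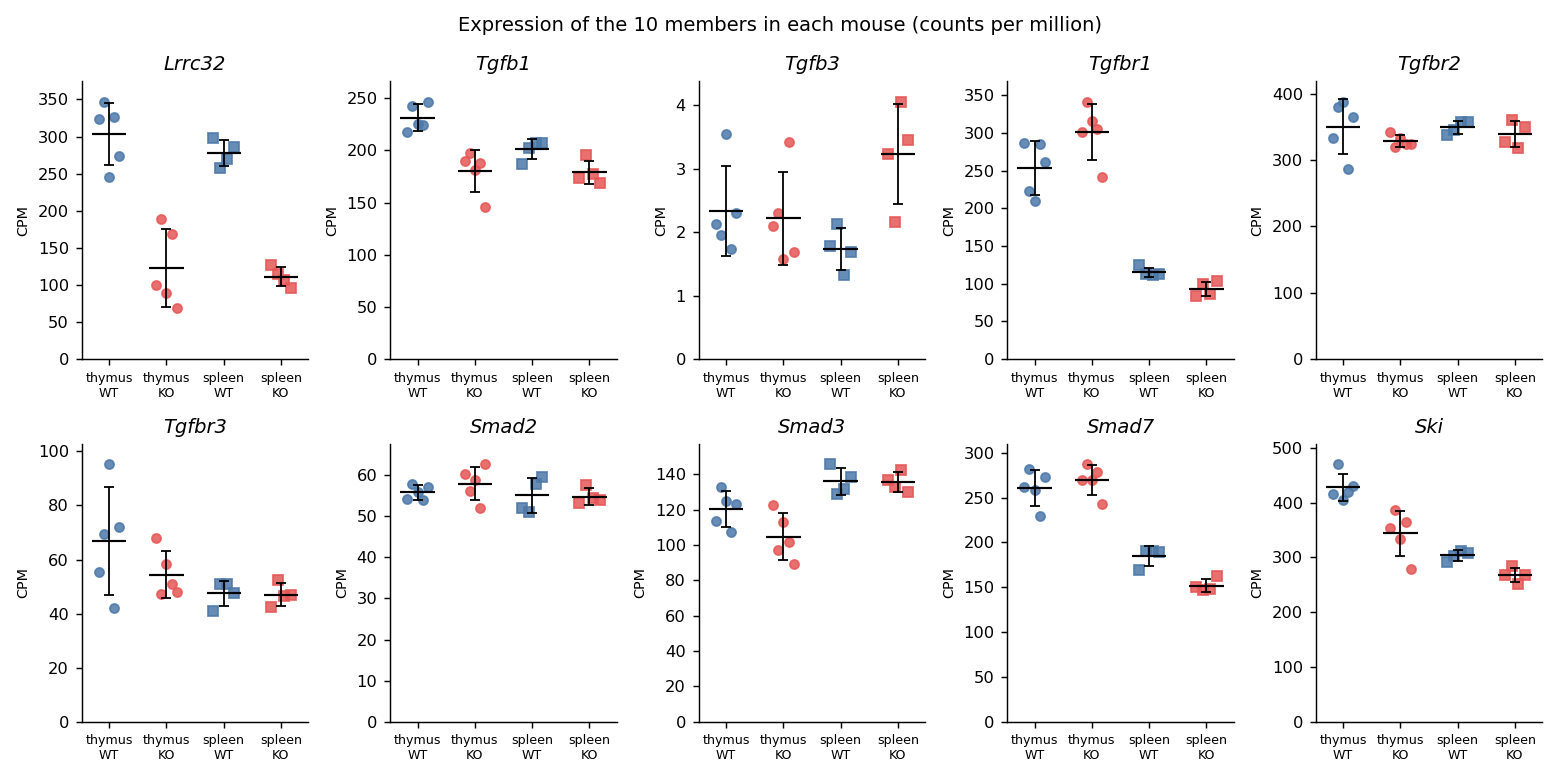
Level of each member in each mouse in CPM, with the mean and SD of the group (black); axes start at 0. The WT (blue) and CD25 KO (red) points of *Lrrc32* are apart in both tissues. Among WT mice, *Tgfbr1*, *Smad7* and *Ski* are lower in splenic (squares) than thymic (circles) Tregs.

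*Lrrc32* (ENSMUSG00000090958.2, chr7:98489283-98502181, plus strand, GRCm38), which encodes the TGF-beta anchor GARP, was measured at 323, 347, 246, 327 and 274 CPM in the thymic WT mice and at 99.7, 188, 88.9, 168 and 68.9 CPM in the thymic CD25 KO mice. The splenic WT mice had 298, 258, 269 and 286 CPM, and the splenic CD25 KO mice had 126.2, 115, 106 and 95.9 CPM. No CD25 KO value reached a WT value in either tissue, and the 2 highest thymic CD25 KO values were those of mice 2 and 4, the mice with the most *Il2ra*. The log2 fold change came to -1.28 ± 0.241 in the thymus (adjusted p = 0.00497) and to -1.33 ± 0.0747 in the spleen (adjusted p = 3.10e-08). In the spleen the call held with each mouse left out in turn (adjusted p up to 4.70e-07). The thymic call was lost without WT mouse 1, 2 or 5 or CD25 KO mouse 1 or 3, with adjusted p of up to 0.0155 and log2 fold changes of -1.32 to -1.19. Without CD25 KO mice 2 and 4, the thymic fall was larger, at -1.81 ± 0.137 (adjusted p = 1.51e-05).

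Set against *Il2ra* in the same sample, *Lrrc32* reached 0.602 ± 0.0303 of its level per length in thymic WT and 0.646 ± 0.0240 in splenic WT Tregs. In CD25 KO Tregs the ratio reached 0.972 ± 0.158 for the thymus and 0.725 ± 0.0750 for the spleen. Every thymic CD25 KO ratio (0.820–1.16) was thus above every thymic WT ratio (0.572–0.649), whereas the splenic ranges overlapped (0.653–0.807 and 0.617–0.676). As *Il2ra* is the gene targeted for deletion, and its lower count by itself raises this ratio, the ratio is not a separate measure of *Lrrc32*. What lowered the count of *Il2ra* over all exons was not tested. *Lrrc32* against *Tgfb1*, that is, the anchor against the ligand it holds, changed from 1.41 ± 0.211 in thymic WT to 0.718 ± 0.254 in CD25 KO Tregs and from 1.49 ± 0.155 to 0.667 ± 0.0773 in the spleen. The ratio was above 1 in each WT sample (1.18–1.71). It was below 1 in each splenic CD25 KO sample (0.612–0.781), and ran from 0.508 to 1.03 in the thymic ones.

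**Figure D3:**
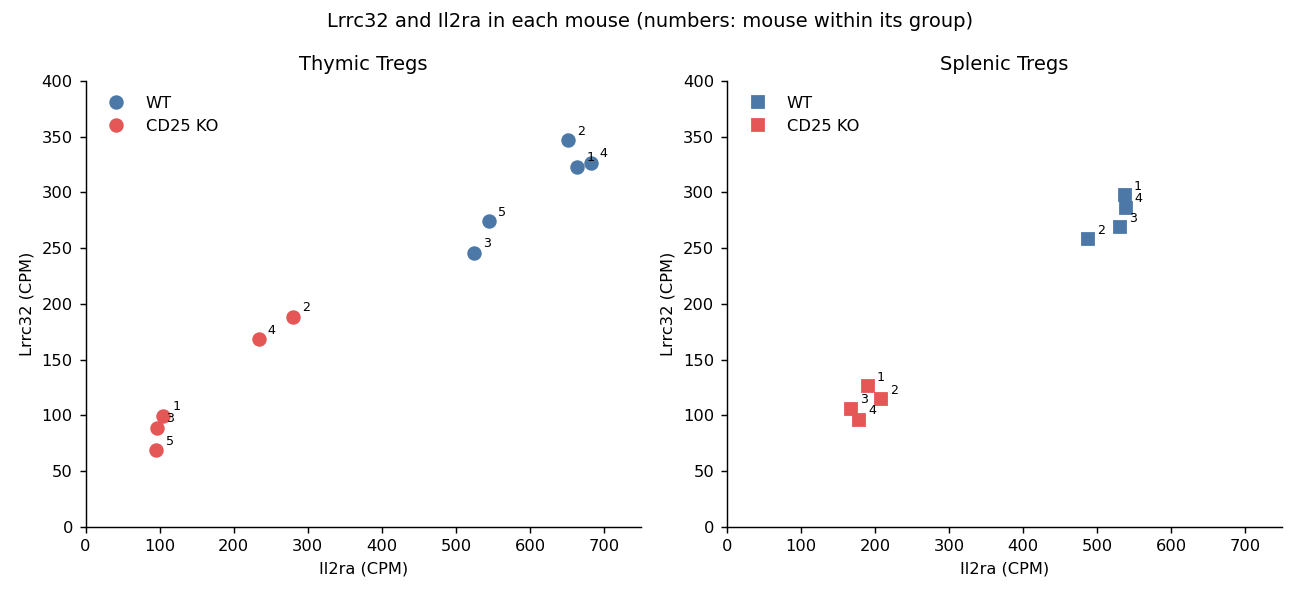
*Lrrc32* against *Il2ra* in each mouse, both in CPM, for thymic (left) and splenic (right) Tregs; numbers name the mouse within its group. Thymic CD25 KO mice 2 and 4 lie between the other 3 CD25 KO mice and the WT mice on both axes, with *Lrrc32* at 188 and 168 CPM.

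Of the ligands, *Tgfb1* was called in neither tissue, and *Tgfb3* was called higher in the spleen. *Tgfb1* (chr7:25687002-25705077, plus strand) was at 217, 243, 225, 225 and 247 CPM in thymic WT and 190, 198, 181, 187 and 146 CPM in thymic CD25 KO mice. The groups did not overlap, but the log2 fold change of -0.34 ± 0.0754 narrowly missed the threshold (adjusted p = 0.0101). DESeq2 called it (adjusted p = 7.29e-04), as did edgeR without mice 2 and 4 (-0.42 ± 0.0844, adjusted p = 0.00511). Splenic *Tgfb1* was at 187, 202, 207 and 207 CPM in WT mice and 174, 195, 178 and 169 CPM in those lacking CD25, with overlapping ranges (-0.17 ± 0.0555, adjusted p = 0.0506).

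*Tgfb3* (ENSMUSG00000021253.6, chr12:86056745-86079041, minus strand) was at 1.78, 2.12, 1.33 and 1.69 CPM in splenic WT and 3.23, 2.16, 4.06 and 3.45 CPM in splenic CD25 KO mice. The lowest CD25 KO value lay just above the highest WT value. The log2 fold change was 0.89 ± 0.211 (adjusted p = 0.00807), and the call was lost when WT mouse 1, 3 or 4 or CD25 KO mouse 1, 3 or 4 was left out (adjusted p up to 0.0307), with all 18 samples in 1 fit (adjusted p = 0.0310) and with upper-quartile normalization (adjusted p = 0.0125). In the thymus, *Tgfb3* ranged from 1.74 to 3.55 CPM among WT and from 1.58 to 3.42 CPM among CD25 KO mice (-0.05 ± 0.251, adjusted p = 0.905). Annotated genes on the opposite strand share 4.82% and 7.60% of the exonic length of *Tgfb3*, and the strand setting of the counting is not given in the sources used here, so reads of these genes cannot be told apart from its own.

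The receptors differed among themselves. *Tgfbr1* (ENSMUSG00000007613.15, chr4:47353222-47414931, plus strand), the type I receptor kinase, was called lower in splenic CD25 KO Tregs, while *Tgfbr2* and *Tgfbr3* were called in neither tissue. The splenic WT mice had 124, 113, 111 and 113 CPM of *Tgfbr1*, and the CD25 KO mice 84.2, 99.4, 86.4 and 103 CPM. These ranges did not overlap (-0.30 ± 0.0678, adjusted p = 0.00530), but the call was lost when any WT mouse or CD25 KO mouse 1 or 3 was left out, with adjusted p of up to 0.0164, and with all 18 samples in 1 fit (adjusted p = 0.0757). In the thymus, the values were 287, 223, 210, 285 and 262 CPM for WT and 302, 342, 316, 305 and 242 CPM for CD25 KO mice. The direction there was opposite, though ranges overlapped and the test did not call it (0.27 ± 0.108, adjusted p = 0.0923). With the correction for GC content described under processing, this thymic value was 0.05 ± 0.102.

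*Tgfbr2*, the type II receptor that binds ligand first, was at 286–388 CPM in thymic WT and 320–343 CPM in thymic CD25 KO mice (log2 fold change -0.07 ± 0.0728, adjusted p = 0.482). In the spleen it was at 338–358 CPM for WT and 319–361 CPM for CD25 KO mice (-0.04 ± 0.0523, adjusted p = 0.645). *Tgfbr3*, the co-receptor betaglycan that presents ligand to TGFBR2, had a wide range in thymic WT mice, at 55.4, 69.5, 95.2, 42.2 and 72.0 CPM. Its log2 fold change came to -0.28 ± 0.178 for the thymus (adjusted p = 0.267) and -0.01 ± 0.0768 for the spleen (adjusted p = 0.928). Per length, the level of *Tgfbr2* over that of *Tgfbr1* stood at 1.14 ± 0.283 in WT and 0.884 ± 0.120 in CD25 KO samples of the thymus, and 2.42 ± 0.179 in WT and 2.91 ± 0.160 in CD25 KO samples of the spleen. The balance of the receptor messages was thus near 1 in thymic samples (0.746–1.47) and above 2 in all splenic samples (2.17–3.10), with every splenic CD25 KO ratio above every splenic WT ratio.

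Among the intracellular members, the inhibitory *Smad7* was called lower in the spleen, and neither receptor-activated SMAD was called. *Smad7* was at 169, 191, 191 and 189 CPM in splenic WT and 150, 147, 148 and 162 CPM in splenic CD25 KO mice. The groups did not overlap, the log2 fold change was -0.28 ± 0.0545 (adjusted p = 0.00189), and the call held with each mouse left out in turn (adjusted p up to 0.00976). The correction for GC content ended it (-0.24 ± 0.0622, adjusted p = 0.0123). Thymic *Smad7* was at 262, 282, 258, 229 and 273 CPM in WT mice and 269, 287, 270, 279 and 243 CPM in those lacking CD25, with overlapping ranges (0.06 ± 0.0625, adjusted p = 0.475). With the GC correction this thymic value was 0.23 ± 0.0535 (adjusted p = 0.0151), also without a call.

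*Smad2* and *Smad3*, which carry the signal from the receptor, had small log2 fold changes. For *Smad2* these amounted to 0.07 ± 0.0558 for thymic (adjusted p = 0.376) and -0.01 ± 0.0605 for splenic Tregs (adjusted p = 0.966), with all 18 samples between 51.0 and 62.6 CPM. *Smad3* was at 107–133 CPM in thymic WT and 89.2–123 CPM in thymic CD25 KO mice (-0.18 ± 0.0823, adjusted p = 0.121). In the spleen *Smad3* was at 129–146 CPM for WT and 130–143 CPM for CD25 KO mice (0.00 ± 0.0531, adjusted p = 0.968).

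*Ski*, the corepressor of SMAD targets, was lower in every CD25 KO mouse than in any WT mouse of its tissue, but was not called. It was at 417, 470, 405, 419 and 430 CPM in thymic WT and 354, 387, 334, 365 and 279 CPM in thymic CD25 KO mice (log2 fold change -0.30 ± 0.0795, adjusted p = 0.0201). The splenic values were 291, 303, 312 and 309 CPM for WT and 268, 284, 251 and 268 CPM for CD25 KO mice (-0.18 ± 0.0504, adjusted p = 0.0211). DESeq2 called it in both tissues (adjusted p = 0.00467 and 0.00595). Without thymic CD25 KO mice 2 and 4, edgeR called it in the thymus as well (-0.40 ± 0.0792, adjusted p = 0.00444).

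Genes of high GC content were lower in thymic CD25 KO Tregs as a whole. The median log2 fold change was 0.268 in the fifth of genes with the lowest GC content and -0.125 in the fifth with the highest, against 0.0675 and -0.0590 in the spleen. GC content was 58.4% for *Lrrc32*, 56.9% for *Smad7*, 55.6% for *Ski*, 53.1% for *Smad3*, 53.0% for *Tgfb3* and 52.5% for *Tgfb1*, and lower for the other 4 members, with *Tgfbr1* the lowest at 41.0%. After the correction, *Lrrc32* was still called in the thymus (-1.13 ± 0.216, adjusted p = 0.00591), while *Tgfb1* was at -0.24 ± 0.0605 (adjusted p = 0.0193) and *Ski* at -0.15 ± 0.0596 (adjusted p = 0.0965).

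**Figure D4:**
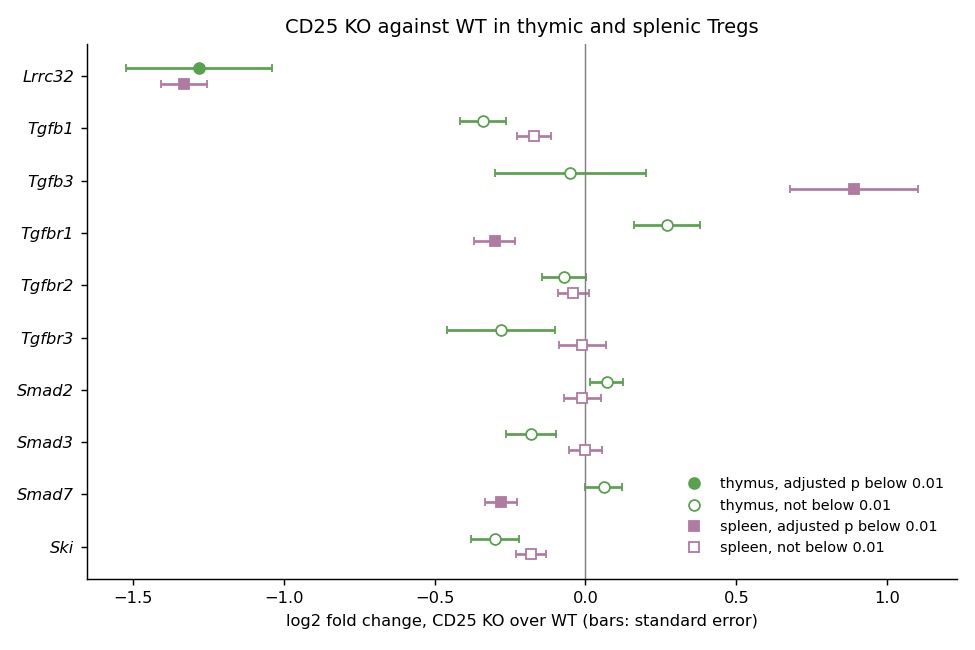
Log2 fold change of each member in CD25 KO over WT Tregs with its standard error, in the thymus (circles) and spleen (squares); filled symbols passed FDR < 0.01. *Lrrc32* lies near -1.3 in both tissues, and *Tgfbr1* lies at 0.27 in the thymus and -0.30 in the spleen.

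Whether the CD25 KO effect itself differed between the tissues was tested as the splenic minus the thymic log2 fold change in a fit of all 18 samples. By edgeR, 0 of 10 members passed FDR < 0.01, beside 6.98% of all 18686 genes tested, 3 had an unadjusted p under 0.05, and DESeq2 called 2 (*Tgfbr1* and *Smad7*). *Tgfbr1* differed by -0.56 ± 0.140 (adjusted p = 0.0106; DESeq2 adjusted p = 0.00325) and *Smad7* by -0.33 ± 0.0878 (adjusted p = 0.0138; DESeq2 adjusted p = 0.00479). *Tgfb3* differed by 0.96 ± 0.346 (adjusted p = 0.0626). For *Lrrc32* the difference was -0.02 ± 0.287 (adjusted p = 0.967), and without thymic CD25 KO mice 2 and 4 it was 0.49 ± 0.160 (adjusted p = 0.0314), a larger fall in the thymus than in the spleen. The remaining 6 members had differences between -0.06 and 0.28 with adjusted p of 0.204 or more. Mouse model, age and run changed with tissue, so none of these values belongs to tissue alone.

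WT Tregs of the spleen were compared with those of the thymus in the same fit, and these values share their WT samples with the comparisons above. *Tgfbr1*, *Smad7* and *Ski* were called, all 3 lower in the spleen, beside 40.4% of all genes called in either direction. *Tgfbr1* was 2.20-fold lower (log2 fold change -1.13 ± 0.102, adjusted p = 1.19e-08), with every splenic value (111–124 CPM) below every thymic value (210–287 CPM). *Smad7* was 1.41-fold lower (-0.50 ± 0.0625, adjusted p = 1.45e-06), as was *Ski* (-0.50 ± 0.0726, adjusted p = 9.31e-06). *Tgfb1* (-0.20 ± 0.0722, adjusted p = 0.0232) and *Tgfbr3* (-0.49 ± 0.161, adjusted p = 0.0148) were not called at FDR < 0.01. *Lrrc32* had -0.13 ± 0.202 (adjusted p = 0.623), *Tgfbr2* 0.00 ± 0.0695 (adjusted p = 0.963) and *Smad2* -0.02 ± 0.0600 (adjusted p = 0.810). *Tgfb3* and *Smad3* had adjusted p of 0.163 and 0.0622.

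Another 62 genes of the pathway, grouped by role in 6 lists, were examined around these members. Of 50 tested in the thymus, edgeR called 0 higher and 5 lower, and DESeq2 called 7 higher and 7 lower. At an unadjusted p under 0.05 by edgeR, 12 were higher and 12 lower there. Of 54 tested in the spleen, 9 rose and 3 fell by edgeR, and DESeq2 called 10 higher and 4 lower. At an unadjusted p under 0.05, 17 were higher and 8 lower in the spleen. Over all genes, edgeR called 539 higher and 508 lower of 16986 in the thymus, and 1031 higher and 620 lower of 17463 in the spleen. DESeq2 called 1490 higher and 1240 lower of 30049 in the thymus, and 1301 higher and 817 lower of 29694 in the spleen. The pathway genes had a median log2 fold change of -0.03 for the thymus and 0.02 for the spleen, beside 0.00 and -0.01 over all genes tested.

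Among 11 genes of latency and ligand activation, *Nrros*, which encodes a relative of GARP that also tethers latent TGF-beta1, fell in both tissues, with log2 fold changes of -0.33 ± 0.0544 in the thymus (adjusted p = 0.00275) and -0.35 ± 0.0511 in the spleen (adjusted p = 1.93e-04). *Furin*, the protease that cleaves the TGF-beta precursor, fell in the thymus (-0.62 ± 0.115, adjusted p = 0.00478) but had -0.04 ± 0.0464 in the spleen, a difference of 0.60 ± 0.135 that was itself called (adjusted p = 0.00518). In the spleen, *Itgav* (0.41 ± 0.0576, adjusted p = 1.28e-04) and *Itgb8* (0.59 ± 0.0835, adjusted p = 1.53e-04) rose, the chains of the integrin alpha-v beta-8 that releases TGF-beta from its complex with GARP. *Itgav* was at 144 ± 5.79 CPM in splenic WT and 192 ± 14.0 CPM in splenic CD25 KO mice, and *Itgb8* at 83.7 ± 7.81 and 125.7 ± 15.9 CPM. *Thbs1*, an extracellular activator of TGF-beta, also rose there (1.33 ± 0.251, adjusted p = 0.00167) from a low level of 0.800 to 2.01 CPM. The third ligand gene, *Tgfb2*, had 4 to 12 counts per sample and was not tested in either tissue.

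None of the other SMADs that passed the filter was called by edgeR in either tissue (0 of 3 in the thymus and 0 of 4 in the spleen), *Smad4* among them, and these counts were also 0 by DESeq2 and at an unadjusted p under 0.05. Of 10 cofactors and corepressors, edgeR called 0 in either tissue, whereas 5 were higher in the thymus at an unadjusted p under 0.05 and 4 by DESeq2. In the spleen 1 was higher and 1 lower at an unadjusted p under 0.05, and DESeq2 called 0. *Skil*, which encodes the SKI relative SnoN, had 0.30 ± 0.0674 in the thymus (adjusted p = 0.0110) and -0.17 ± 0.0547 in the spleen (adjusted p = 0.0415), and this difference of -0.45 ± 0.0882 was called (adjusted p = 0.00171). Of the inhibitors and ubiquitin enzymes, 1 of 13 fell in the thymus and 1 of 12 in the spleen. *Fkbp1a*, whose product FKBP12 binds type I receptors, fell in the thymus (-0.48 ± 0.0745, adjusted p = 0.00237) and had 0.16 ± 0.0491 in the spleen (adjusted p = 0.0383), a called difference of 0.65 ± 0.0951 (adjusted p = 1.43e-04). *Nedd4l*, a ubiquitin ligase of SMADs, fell in the spleen (-0.87 ± 0.117, adjusted p = 9.83e-05). In the thymus it had -0.26 ± 0.0790 (adjusted p = 0.0365), without a call.

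In the co-receptor and kinase list, *Traf6*, a ubiquitin ligase of the TAK1 branch, fell in the thymus (-0.27 ± 0.0436, adjusted p = 0.00275). In the spleen it had -0.18 ± 0.0563 (adjusted p = 0.0382), without a call. *Acvrl1*, a type I receptor of the family, fell in the spleen (-0.92 ± 0.183, adjusted p = 0.00235). Its thymic value was -1.67 ± 0.402 (adjusted p = 0.0137), not called, and the difference between tissues was not called either (0.77 ± 0.516, adjusted p = 0.318). *Cd109*, a TGF-beta co-receptor, rose in the spleen (2.73 ± 0.387, adjusted p = 1.50e-04) from 2 to 10 counts per WT sample to 27 to 59 counts per CD25 KO sample. It did not pass the filter in the thymus. *Tab2*, a TAK1 adaptor, was called for the difference between tissues (0.30 ± 0.0746, adjusted p = 0.00917) but not for CD25 KO against WT within either tissue.

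Genes that respond to TGF-beta in T cells were examined last. The list mixes genes that TGF-beta raises with genes that it lowers, so a count of rises does not give the direction of signaling. In the thymus 1 of 14 fell and 0 rose by edgeR, while 5 were higher and 4 lower at an unadjusted p under 0.05. DESeq2 called 2 higher and 2 lower there. The gene that edgeR called lower was *Itgae*, encoding CD103, at 45.3 ± 5.47 CPM for WT and 17.2 ± 8.01 CPM for CD25 KO mice (log2 fold change -1.38 ± 0.258, adjusted p = 0.00497). In the spleen 5 of 17 rose and 0 fell by edgeR, as by DESeq2. At an unadjusted p under 0.05, 9 were higher and 2 lower in the spleen. Higher calls also outnumbered lower calls among all genes tested in the spleen (1031 and 620). *Id2*, an inhibitor of helix-loop-helix factors that TGF-beta is known to lower in many cells, had 0.90 ± 0.0875 (adjusted p = 4.86e-06), the chemokine receptor gene *Cxcr6* 0.80 ± 0.134 (adjusted p = 6.50e-04) and *Rgs16*, a regulator of G protein signaling, 0.67 ± 0.103 (adjusted p = 3.18e-04). The other 2 were *Ahr* and *Gadd45b*. In the thymus, without a call, *Id2* had -0.47 ± 0.204 (adjusted p = 0.115), *Cxcr6* 0.32 ± 0.115 (adjusted p = 0.0629) and *Rgs16* 0.54 ± 0.127 (adjusted p = 0.0123). Splenic *Itgae* stood at 128.4 ± 18.4 CPM for WT and 134 ± 2.51 CPM for CD25 KO mice (0.06 ± 0.0788), and its effect differed between the tissues (1.45 ± 0.293, adjusted p = 0.00235), as did that of *Id2* (1.38 ± 0.247, adjusted p = 8.91e-04).

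**Figure D5:**
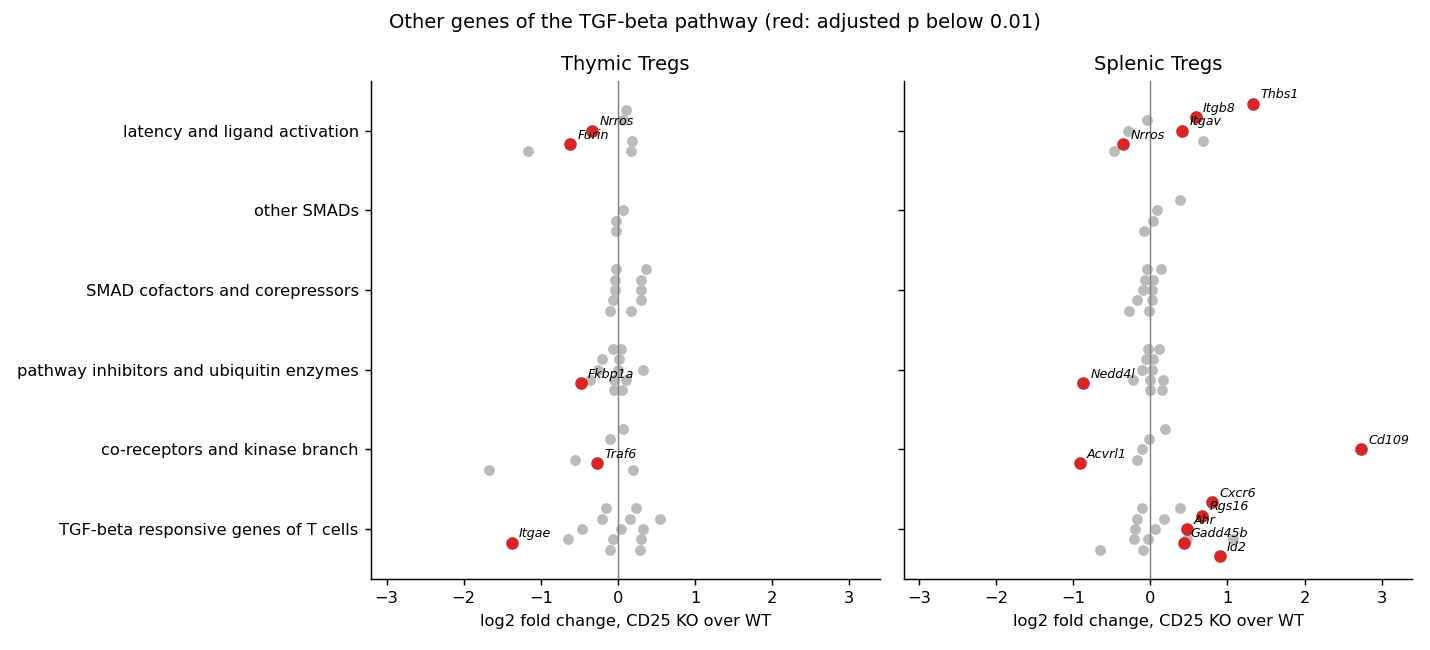
Log2 fold change of the other pathway genes by list (rows) in thymic (left) and splenic (right) CD25 KO over WT Tregs, each point a gene tested and red points those with adjusted p below 0.01. Red points lie left of 0 in the thymus (5 genes), and 9 of 12 lie right of 0 in the spleen.

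IL-2 receptor signaling acts in part through STAT5, which binds palindromes of the form TTCNNNGAA, so the RefSeq promoter windows (GRCm38.p6) were read for this motif in the 250 bases before the start of the gene. The motif reads alike on both strands. It was found in 7.02% of 32851 windows, and 0.317% held 2 or more. Windows were at hand for 5 members (*Tgfb1*, *Tgfbr1*, *Tgfbr2*, *Smad3* and *Ski*, 6 windows in all), and 0 of the 6 held it. Of 44 other pathway genes with a window, 3 held it, and *Nrros*, called lower in both tissues, held it at 2 positions, -240 and -189 from its start. This is a description of letters in these windows and says nothing about binding of a factor. The windows of *Nrros* (chr16:32165595-32165844, minus strand), of *Tgfb1* (chr7:25686752-25687001, plus strand) and of the upstream start of *Tgfbr1* (chr4:47352972-47353221, plus strand) are shown 5′ to 3′, the first because it holds the motif and the others as members without it. Capitals mark the fixed bases of the motif, and no base of these windows is exonic in GENCODE M21.
Nrros: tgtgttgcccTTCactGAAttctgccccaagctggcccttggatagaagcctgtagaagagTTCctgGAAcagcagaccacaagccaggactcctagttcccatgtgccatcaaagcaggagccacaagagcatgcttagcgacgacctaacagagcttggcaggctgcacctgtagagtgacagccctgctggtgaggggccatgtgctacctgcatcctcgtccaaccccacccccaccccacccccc
Tgfb1: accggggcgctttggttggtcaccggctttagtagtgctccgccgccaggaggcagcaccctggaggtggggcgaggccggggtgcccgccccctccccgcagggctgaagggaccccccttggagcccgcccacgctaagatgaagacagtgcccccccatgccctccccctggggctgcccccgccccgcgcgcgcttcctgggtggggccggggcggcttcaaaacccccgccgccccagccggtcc
Tgfbr1: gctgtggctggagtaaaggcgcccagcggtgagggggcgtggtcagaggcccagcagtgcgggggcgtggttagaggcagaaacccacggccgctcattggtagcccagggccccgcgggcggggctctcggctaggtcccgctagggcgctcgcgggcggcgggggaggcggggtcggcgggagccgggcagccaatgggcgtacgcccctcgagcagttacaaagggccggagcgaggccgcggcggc

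The genes nearest in pattern to each called member were found over the 18 samples among 12934 genes, by the root mean square difference of centred log2 CPM. As the points share their libraries, this is a description. *Myc* (0.285), *Il2ra* (0.299) and *Car12* (0.319) were nearest to *Lrrc32*, all 3 lower in CD25 KO than in WT Tregs of both tissues. For *Myc*, a transcription factor of cell growth, mean log2 CPM was 6.96 (WT) and 5.96 (CD25 KO) in the thymus and 6.70 (WT) and 5.68 (CD25 KO) in the spleen. *Plagl1* (0.154), *Skil* (0.160) and *Spef2* (0.177) were nearest to *Tgfbr1*. For *Skil*, mean log2 CPM was 8.84, 9.12, 7.85 and 7.67 in the same order of groups, so the *Tgfbr1* and *Skil* messages were both higher in thymic than splenic samples. *Stt3b* (0.0847), *Rgs10* (0.0864) and *Stk38* (0.0890) were nearest to *Smad7*, and *AA414768* (0.287), *Rnf157* (0.288) and *Hist1h1c* (0.316) to *Tgfb3*.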

How the data were processed

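Gene counts of 18 samples were deposited by the authors as whole numbers without normalization. Per the submitters' notes and the methods, reads were aligned to GRCm38 with STAR 2.5.0b and counted per gene of GENCODE M13 with featureCounts 1.5.0. The strand setting is not given in the sources used here. Symbols, exonic lengths and GC content were taken from GENCODE M21, which names 50376 of 50600 identifiers.

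edgeR 4.0.16 was used under R 4.3.3, and DESeq2 1.42.0 as an alternative. Groups were taken from the sample labels. Within each tissue, genes were filtered by filterByExpr, libraries scaled by TMM, and CD25 KO compared with WT by the quasi-likelihood test with Benjamini-Hochberg adjustment, calling FDR < 0.01. The difference between tissues and the WT comparison were tested in a fit of 18 samples in 4 groups. Standard errors are the log2 fold change over the square root of F. CPM and RPKM use TMM factors over all 18 samples. Samples are separate mice.

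The members and all lists were chosen with earlier results of these data known. Named were all 10 members, up to 3 called genes with the largest change per list, direction and comparison, the 3 genes nearest in pattern to each called member (mean log2 CPM of at least 1, prior count 2), *Il2ra* and *Foxp3*. *Ahr*, *Gadd45b*, *Tgfb2*, *Smad4* and single cell type markers were named after their values were seen.

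Alternatives were RLE and upper-quartile normalization, no filter, at least 10 counts in every sample, FDR < 0.05, DESeq2, all 18 samples in 1 fit, a correction for GC content (a spline with 6 degrees of freedom per library, as an offset), a replicate block by thymic mouse number, and leaving out each mouse. Leaving out thymic CD25 KO mice 2 and 4 together was added after seeing the data. The scripts were tested on simulated data. Total counts of at least 17239774 per sample limit the precision only for *Tgfb3* and other genes with few counts.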

Additional observations from a re-analysis of the deposited data

Results flagged for a closer look

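In 3 of 40 combinations of a member and a group, the sample at the edge lay far from the others, as judged by the gap to its nearest neighbour over the range of the group; chance alone gives about 1 in 20. *Tgfbr1* in splenic WT mouse 1 was at 124 CPM against 113 CPM in the nearest mouse (gap over range 0.858). *Smad7* in splenic WT mouse 1 was at 169 against 189 CPM (0.932). *Smad7* in splenic CD25 KO mouse 4 was at 162 against 150 CPM (0.831). For *Smad7*, the samples far from the others are those nearest to the other genotype. The splenic *Tgfbr1* call was lost without WT mouse 1, and the splenic *Smad7* call was not.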

How the results depend on the processing

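The number of thymic members called was 1, and it was 3 at FDR < 0.05, with DESeq2, with all 18 samples in 1 fit or without CD25 KO mice 2 and 4, in each case *Lrrc32*, *Tgfb1* and *Ski*. It was 2 without a filter on low counts, and 0 to 2 when each mouse was left out. For the spleen, 4 became 2 with all 18 samples in 1 fit and 2 to 4 when mice were left out, and *Lrrc32* and *Smad7* were called in each of these. For the difference between tissues, 0 became 2 at FDR < 0.05, with upper-quartile normalization or with DESeq2, and 1 without a filter, with at least 10 counts in every sample or with the GC correction, and ran from 0 to 2 when mice were left out. WT Tregs of the tissues differed in 5 members at FDR < 0.05 and in 3 to 5 when mice were left out. Values near 0 turned sign. With the GC correction these were *Tgfb3* in the thymus (0.05, and 0.05 with the replicate block), *Smad3* in the spleen (0.02), the difference of *Tgfbr2* (-0.02, and -0.03 with upper-quartile normalization), and *Tgfbr2* (0.01) and *Smad2* (0.00) between WT tissues. The difference of *Lrrc32* was 0.49 without mice 2 and 4. With mice left out in turn, thymic *Tgfb3* ran from -0.27 to 0.15, splenic *Tgfbr3* from -0.08 to 0.03, *Smad2* from -0.04 to 0.03 and *Smad3* from -0.03 to 0.03, the difference of *Lrrc32* from -0.17 to 0.18, and *Tgfbr2* from -0.10 to 0.03 and *Smad2* from -0.06 to 0.02 between WT tissues. The cause was not tested. Among values of single members under all alternatives, direction and call were kept in 189 for the thymus, 129 for the spleen, 238 for the difference and 230 for the WT comparison. Calls were lost in 5 and 16 for thymus and spleen. In the order thymus, spleen, difference and WT comparison, calls were gained in 11, 3, 14 and 12, and the sign was reversed in 5, 12, 8 and 8.

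Over all genes, 1047 were called in the thymus, 2730 with DESeq2, 3951 at FDR < 0.05 and 209 with a replicate block by thymic mouse number. The block called 1 member, *Lrrc32* (-1.38 ± 0.162, edgeR adjusted p = 0.00461), as did the replicate block with GC correction (-1.21 ± 0.144, adjusted p = 0.00431). The deviations of thymic mice that share a number correlated at -0.238 to 0.141, against a median of 0.0369 for other numbers. Of 10 mice, 2 correlated best with their own number. The labels do not say whether mice that share a number were paired, and these correlations cannot exclude it. With all 18 samples in 1 fit, 2881 were called in the thymus and 795 in the spleen. In the spleen 1651 genes were called, and 3001 at FDR < 0.05. The difference between tissues had 1305 calls, 2188 with DESeq2 and 3149 at FDR < 0.05. Upper-quartile normalization moved the thymic split from 539 higher and 508 lower to 808 and 440, that of the difference from 840 and 465 to 616 and 669, and the GC correction that of the difference to 673 and 665.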
